A study of Arabidopsis thaliana with 16 samples.

Results

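Rosettes of the Arabidopsis thaliana autophagy mutant atg5 were compared with wild-type Col-0 rosettes after 60 days on low nitrate, using 4 of the 16 arrays of the series, 2 for each genotype. The arrays were chosen by genotype, age and nitrate as labelled. One Col-0 title does not state the nitrate supply, which was taken from its source description. The mutant allele is atg5-3, a single SALK T-DNA line, and no second allele or complemented line was analysed here. Plants of both genotypes received 2 mM nitrate in short days of 8 h light and 16 h dark. Each array holds whole-rosette RNA from more than 6 pooled plants. The 2 arrays of a genotype come from consecutive cultures grown several months apart, called culture 1 and culture 2 below, so each difference can be read within a culture. The other 12 arrays serve here only for the spread and for 3 further comparisons, with rosettes at 30 days on 2 mM nitrate, with rosettes on 10 mM nitrate, and with the mutant atg9 at 60 days.

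Autophagy carries cytoplasm, whole organelles and protein aggregates to the vacuole for breakdown. Double-membrane vesicles form with the help of a lipid-linked ubiquitin-like protein, ATG8, and ATG5 is a part of the complex that attaches ATG8 to the membrane. In Arabidopsis leaves autophagy serves nutrient recycling in ageing and starved tissue, and atg mutants are known for early leaf senescence and for raised salicylic acid signalling. Hybridisation was to the ATH1 array, which reads each transcript with a set of short probes near its 3′ end. Each value is a MAS5 signal, a linear intensity scaled by array. No probe set was paired with ATG5 in the annotation used, so its own transcript was not analysed here and the genotype labels were not checked against it.

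The tissue label was checked first. The 14 tested nuclear photosynthesis genes had signals from 1480.6 to 24829.7, summing to 165900 and 178700 in the 2 Col-0 arrays and to 158400 and 152400 in the 2 atg5 arrays. Root marker signals, summed over 4 genes, were 456.3 and 980.2 in Col-0 against 560.6 and 675.6 in atg5. Most of each sum was PYK10, at 281.3 and 688.0 in Col-0 against 423.1 and 504.7 in atg5. NAI2 was at 110.9 and 220.3 in Col-0 against 111.7 and 125.5 in atg5, EXPA7 at 17.9 to 26.4 and EXPA18 at 6.7 to 54.0. Floral marker signals, summed over 3 genes, were 433.0 and 438.2 in Col-0 against 295.5 and 339.2 in atg5. Most of each sum was AGL24, at 364.4 and 381.3 in Col-0 against 220.1 and 267.6 in atg5. AGL42 was at 55.1 to 69.1 and the anther gene AMS at 1.8 to 11.5. In pooled rosettes, fewer cells of a type and less RNA per cell cannot be told apart.

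One of the 4 arrays stood apart from the rest. On the culture 1 atg5 array the actin control had a ratio of 3′ to 5′ signal of 9.05, against 1.5 to 3.04 on the other 15 arrays of the series, and the GAPDH ratio was 2.01, against 0.782 to 1.24. A high ratio means that probes near the 3′ end were bright relative to those near the 5′ end, a common measure of RNA integrity and labelling. The part of this array in each result was not tested, so results are given with and without it. A further array, Col-0 at 30 days in culture 1, had a lower quartile of signal of 89.3 against 26.6 to 39.0 on the others. Its signals enter a difference only in the comparison with 30 days. Through the shared spread they also bear on the SE and adjusted p of every other test. The 2 Col-0 arrays at 60 days correlated at 0.978 across probe sets, and the 2 atg5 arrays at 0.954.

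Far more transcripts passed the test as higher in atg5 than as lower. Of 13648 probe sets tested, 649 were higher (4.76%) and 293 were lower (2.15%), or 942 in all (6.9%), at a limma adjusted p under 0.05. Differences are on the log2 scale of signal plus 32, a constant that keeps dim probe sets from giving large ratios by noise and that makes the change of dim genes look smaller. In the higher group 311 differed by at least 4-fold, against 23 in the lower group. The median difference was 1.95 in the higher group and −1.2 in the lower group, against −0.13 over all probe sets tested. A single gene was paired with 7311 of the tested probe sets, 53.6%, and of these 289 were higher (3.95%) and 141 were lower (1.93%). Names therefore reach only part of the change.

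The rises were of similar size in both cultures and the falls were not. Within culture 1 the median difference of the 649 higher probe sets was 2.0, and within culture 2 it was 1.81. The 293 lower probe sets had a median of −1.48 in culture 1 and −0.90 in culture 2, and 256 of them, 87.4%, were further from 0 in culture 1, against 65.4% of all probe sets tested. Across all probe sets the culture 1 differences had an SD of 0.933, those of culture 2 an SD of 0.756, and the 2 sets correlated at 0.754, a description across genes that share arrays. The median signal level also differed, at 8.59 on the log2 scale for the higher group and 9.23 for the lower group, against 8.92 over all tested.

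**Figure D1:**
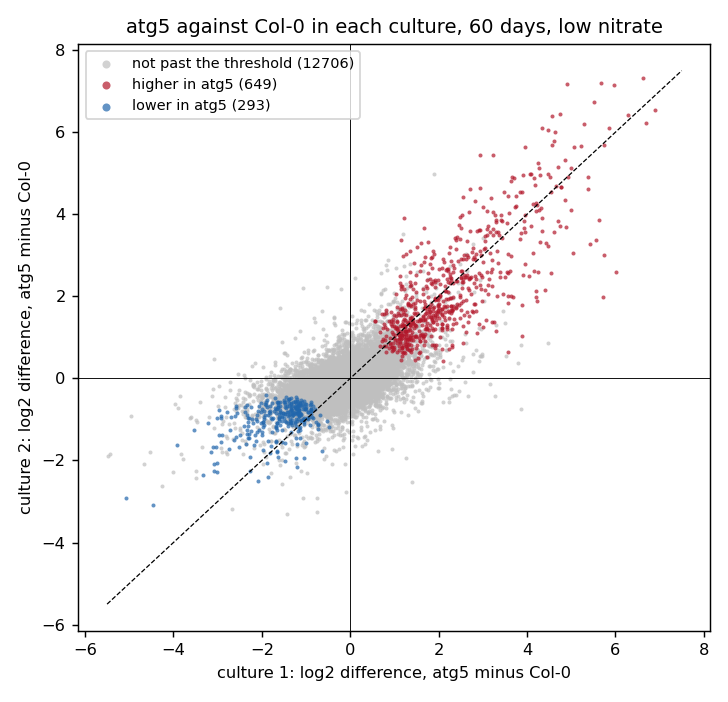
Each point is 1 of the 13648 probe sets tested, placed by its log2 difference (atg5 minus Col-0, 60 days, low nitrate) in culture 1 on the x axis and in culture 2 on the y axis, with the 649 higher and 293 lower probe sets coloured. The higher probe sets reach similar values on both axes, while most lower ones lie further from 0 on the culture 1 axis.

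Removing the culture 1 atg5 array kept 282 of the 649 higher probe sets past the threshold, 43.5%, with a median of 1.83, and 15 of the 293 lower ones, 5.12%, with a median of −0.94. Leaving out any array lowers the number of samples, and the fits without 1 of the Col-0 arrays kept 188 and 255 of the higher and 8 and 33 of the lower probe sets. Without the culture 2 atg5 array, the fit that leans on the array with the high actin ratio, 478 of the higher and 256 of the lower kept their call, while the total of lower calls went from 293 to 956. With the actin ratio as a covariate 380 of the higher and 27 of the lower remained past the threshold. In all 4 fits that each leave out 1 array, 158 higher probe sets passed (1.16%) and 3 lower ones (0.022%).

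**Figure D2:**
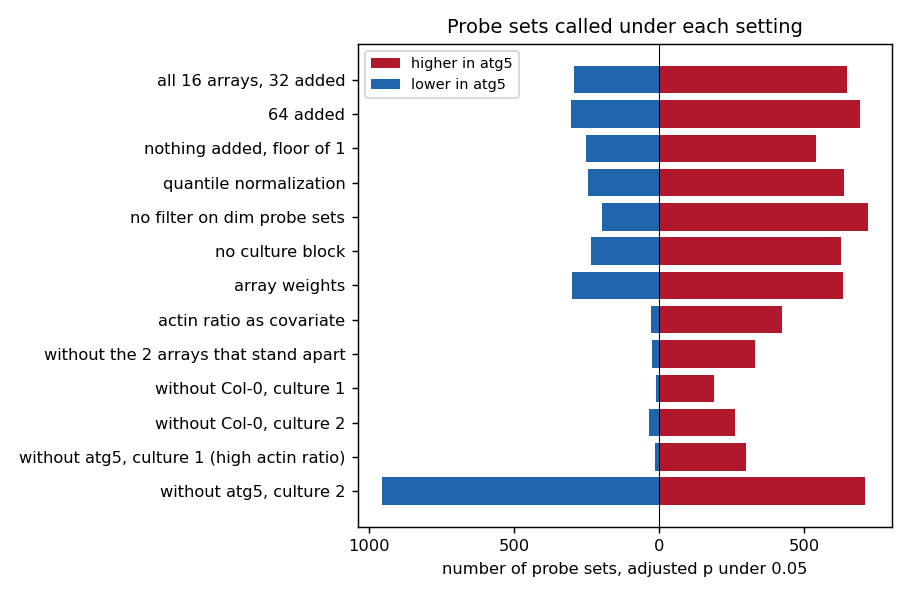
Bars give the number of probe sets with an adjusted p under 0.05, higher in atg5 to the right and lower to the left, under the setting named on the y axis. The higher bar ranges from 188 to 721 among the settings drawn, and the lower bar from 11 to 956.

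Of the 15 largest named rises, 10 were in genes under a signal of 97.6 in both Col-0 arrays at 60 days, the mean level that the filter on dim probe sets asks for over all 16 arrays. Such a gene enters the test through arrays in which it is bright, so that a difference was built into its entry, and its fold depends on the constant added. Among all 649 higher probe sets 130 were of this kind (20%), against 2.56% of all tested, and the other 519 were not. The same holds for genes named further below with both Col-0 signals under 97.6, among them AT1G26380, ChiC, AT1G57630, AT1G51890, CCOAMT, cwINV6, AMY1 and SBT3.3. Their calls are therefore no independent support for a list. ADPG1, a polygalacturonase of cell separation in pods and anthers, had signals of 20.6 and 3.7 in Col-0 and of 1545.3 and 5124.2 in atg5. Both atg5 arrays were far above both Col-0 arrays, and the fitted difference was 6.04 ± 0.63 (SE, 2 arrays a genotype; adjusted p = 0.000576). ADPG1 is one of the 10, its difference was 5.25 with 64 added in place of 32, and it passed with no filter too. With nothing added and a floor of 1 its mean fell under the filter, and it was not tested. AT1G30700, of the berberine bridge enzyme-like oxidases, which oxidise sugars or alcohols in the cell wall space, had signals of 39.1 and 19.9 in Col-0 against 4058.8 and 3507.2 in atg5, with a difference of 5.97 ± 0.64 (adjusted p = 0.000596). The chitinase-type gene CHI went from 104.2 and 126.9 in Col-0 to 5052.4 and 8056.2 in atg5, a difference of 5.45 ± 0.74 (adjusted p = 0.00157). In these 3 genes the groups did not overlap, and all 3 passed with each of the 4 arrays left out. The share of all tested probe sets without overlap was not counted. With 2 arrays a genotype, a gene picked for a large called difference is likely to show no overlap. Non-overlap here and below therefore only describes the signals and adds no evidence.

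The other genes among the 15 largest rises ran from 4.54 to 5.72. AT1G05340, which encodes a short protein with a cysteine-rich end, had signals of 90.6 and 53.4 in Col-0 and of 6578.1 and 4390.0 in atg5 (5.72 ± 0.70, adjusted p = 0.000886). AT2G32190, of the same family of short proteins, had signals of 20.4 and 1.1 in Col-0 and of 1494.6 and 1293.7 in atg5 (5.09 ± 0.52, adjusted p = 0.000576). In both genes the 2 atg5 arrays were within 1.5-fold of each other and both lay far above Col-0. AT3G28510, an AAA-type ATPase gene, had 8.8 and 12.8 in Col-0 and 745.0 and 1663.7 in atg5 (4.75 ± 0.58, adjusted p = 0.000864). AT1G62760, of the plant invertase and pectin methylesterase inhibitor family, had 322.5 and 198.7 in Col-0 and 9587.3 and 5805.1 in atg5 (4.71 ± 0.58, adjusted p = 0.000886). BGLU46, a beta-glucosidase of monolignol glucosides, had 16.3 and 18.0 in Col-0 and 1370.3 and 986.3 in atg5 (4.6 ± 0.50, adjusted p = 0.000596). None of these groups overlapped, and these 5 genes passed with each array left out. AT1G05340, AT2G32190, AT3G28510 and BGLU46 were under 97.6 in both Col-0 arrays, so a difference was built into their entry to the test. Fits that leave out an array use the probe sets filtered on all 16 arrays, so passing them does not remove this.

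Genes of the set whose function is left unstated here behaved alike. AT3G61930, also under 97.6 in both Col-0 arrays, had 73.8 and 7.0 in Col-0 against 3479.9 and 1899.7 in atg5 (5.34 ± 0.59, adjusted p = 0.000641). AT5G40690 had 181.2 and 62.0 against 4073.7 and 3232.4 (4.69 ± 0.46, adjusted p = 0.000457). AT4G00700, AT3G18250 and AT2G15220 differed by 4.71 ± 0.73, 4.66 ± 0.59 and 4.54 ± 0.54. Of the 15, AT2G31945 did not pass with each array left out, and it stood at 4.75 ± 0.79 with all arrays (adjusted p = 0.0045). Leaving out the culture 1 atg5 array gave 3.78 (adjusted p = 0.0626), and leaving out the culture 1 wild type gave 4.70, neither of which passed. AT4G01870, named for its change with age, rose by 4.35 ± 0.72 (adjusted p = 0.00439) and lost its call in the same 2 fits, at 3.29 and 4.18.

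**Figure D3:**
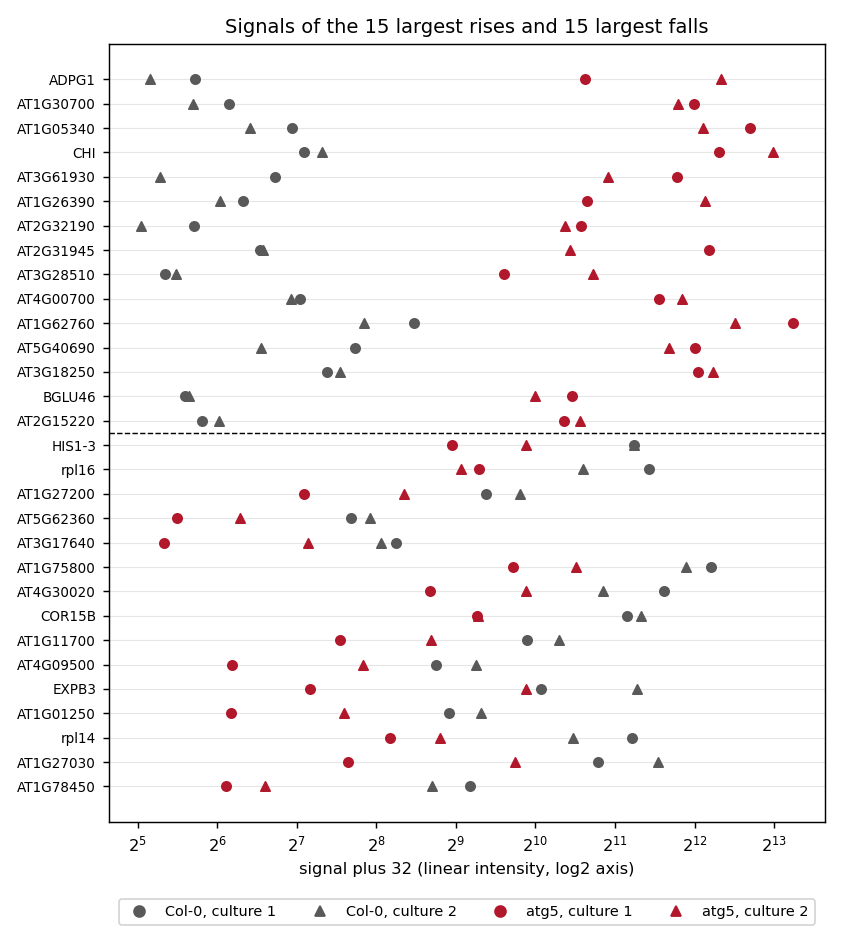
Signals plus 32 (linear intensity on a log2 axis) of the 15 genes with the largest rises and the 15 with the largest falls among called probe sets with 1 gene, with a marker for each genotype and culture. Among the rises the 4 points of a gene form 2 separated pairs by genotype, as in ADPG1, while among the falls the culture 1 atg5 array is usually lowest.

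Autophagy genes were read next, since atg5 blocks the pathway they serve. Of 18 tested, 6 rose and none fell, against 4.76% higher and 2.15% lower over all probe sets tested. Above 0 were 17 of the 18, against 39.0% over all tested, and the list's median was 0.63 against −0.13. ATG8H, an ATG8 of the group that needs no trimming of its tail before lipid attachment, had signals of 191.4 and 221.6 in Col-0 and of 4942.5 and 2339.4 in atg5. Both atg5 arrays were more than 10-fold above both Col-0 arrays, and the difference was 3.85 ± 0.42 (adjusted p = 0.000596). ATG8E had 308.2 and 411.0 in Col-0 against 2925.5 and 1816.4 in atg5 (2.59 ± 0.43, adjusted p = 0.00459). The ATG8A gene, listed as APG8A, had 1156.7 and 1577.3 in Col-0 against 3588.2 and 4294.9 in atg5 (1.52 ± 0.25, adjusted p = 0.00412).

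ATG8B rose less, with 714.0 and 523.4 in Col-0 against 1433.1 and 1151.1 in atg5 (1.03 ± 0.27, adjusted p = 0.0439). The other ATG8 genes did not pass, and their differences were 0.63 for ATG8G, 0.63 for the ATG8I gene listed as APG8H, 0.52 for ATG8D, 0.31 for ATG8C and 0.31 for ATG8F. Outside ATG8, AT3G61960, which encodes an ATG1-type kinase that starts the process, had 775.1 and 889.9 in Col-0 against 2088.5 and 1971.9 in atg5 (1.26 ± 0.24, adjusted p = 0.00882). AT1G77890, which encodes an ATG14-type subunit of the lipid kinase complex, had 132.4 and 92.1 against 700.5 and 382.8 (1.95 ± 0.46, adjusted p = 0.027). The kinase genes AT3G53930 and AT2G37840 stood at 0.85 and −0.24, ATG3, which hands ATG8 to its lipid, at 0.37, and AT5G50230, the gene of ATG16, the partner of ATG5, at 0.28. None of the last 4 passed.

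Of the 6 called autophagy genes, ATG8H alone passed with each array left out. Without the culture 1 atg5 array the list's median was 0.55 and 2 of the 6 kept the call, ATG8H at 3.20 (adjusted p = 0.00684) and ATG8A at 1.53 (adjusted p = 0.0307), while ATG8E stood at 2.2 (adjusted p = 0.0594) and AT3G61960 at 1.19 (adjusted p = 0.0735). ATG8E and ATG8A no longer passed when the culture 1 wild type was left out (2.37 and 1.4), nor did ATG8B, AT3G61960 and AT1G77890 with either Col-0 array left out.

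The next 4 genes belong to no list here and were picked for their symbol after their values were seen. VPS60.1, an ESCRT-III related subunit of endosome sorting, had 303.4 and 379.5 in Col-0 against 948.9 and 1044.4 in atg5 (1.47 ± 0.22, adjusted p = 0.00246). VPS20.1, also of ESCRT-III, had 288.2 and 361.3 against 768.8 and 733.5 (1.14 ± 0.28, adjusted p = 0.0345) and lost its call without any 1 of the 4 arrays. UBC32, a ubiquitin-conjugating enzyme of the endoplasmic reticulum, had 1184.3 and 1179.2 against 3127.7 and 3344.2 (1.43 ± 0.20, adjusted p = 0.002), and RING1, a membrane ubiquitin ligase of the cell death response, had 1162.0 and 1334.6 against 7672.4 and 6013.6 (2.42 ± 0.31, adjusted p = 0.00105). VPS60.1, UBC32 and RING1 passed with each array left out. Of the list of proteasome subunit genes none of 9 passed (6.9% over all tested). Their median was −0.06, with a range from −0.19 to 0.28.

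Several lists of defence genes had high medians. Their counts are to be read against 4.76% of all probe sets tested that were higher and 39.0% that were above 0. Of 8 salicylic acid and pipecolate genes with a probe set, 5 passed the filter on dim probe sets and were tested. Of these 2 rose and none fell, with all 5 above 0 and a median of 2.5. The filter keeps genes that are bright in some arrays, so this count and median may be partly built by it. AT5G52810, whose enzyme makes the immune signal pipecolate, had 112.2 and 219.9 in Col-0 against 956.5 and 2248.8 in atg5 (2.98 ± 0.43, adjusted p = 0.00213). AT5G03350, a lectin-like gene of systemic resistance, had 1343.1 and 1620.9 against 8444.2 and 12381.2 (2.77 ± 0.60, adjusted p = 0.019). The groups did not overlap in either gene. The other members did not pass, namely WRKY53, a senescence and defence transcription factor, at 2.5 ± 0.75 (adjusted p = 0.0671), GRX480, a glutaredoxin downstream of salicylic acid, at 1.85 (adjusted p = 0.171), and SAG101, a partner of the immune regulator EDS1, at 0.82 (adjusted p = 0.168). AT5G52810 passed with each array left out, while AT5G03350 lost its call without either Col-0 array (2.37 and 3.17) or without the culture 2 atg5 array (2.2).

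Of 15 chitinase-family genes with a probe set, whose enzymes cut fungal wall polymer, 5 passed the filter on dim probe sets and were tested. Of these 4 rose, with a median of 2.16. Of 22 berberine bridge enzyme-like genes with a probe set 8 were tested, of which 4 rose and none fell. Of the 8, 6 were above 0 and 2 below, with a median of 1.91. The filter keeps genes that are bright in some arrays, so these counts and medians were partly built by it. Besides CHI, the chitinase gene AT3G47540 had 121.7 and 158.3 in Col-0 against 1989.3 and 3395.4 in atg5, and its adjusted p was the smallest among the genes described here (3.94 ± 0.25, adjusted p = 3.11e-05). AT4G01700 had 97.2 and 216.1 against 458.9 and 1274.2 (2.16 ± 0.40, adjusted p = 0.00778), and ChiC had 66.9 and 80.4 against 462.5 and 332.8 (2.01 ± 0.33, adjusted p = 0.00398). In none of these 3 genes did the groups overlap. The remaining one, AT2G43590, differed by 0.10 in culture 1 but by 2.45 in culture 2, and did not pass (1.28, adjusted p = 0.172). Leaving out the culture 1 wild type ended the calls of AT4G01700 (1.86) and ChiC (1.99), and leaving out the culture 1 atg5 array that of ChiC (1.67, adjusted p = 0.0586).

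Among the berberine bridge enzyme-like genes, AT1G26390 had 47.9 and 33.5 in Col-0 against 1572.8 and 4441.2 in atg5 (5.21 ± 0.57, adjusted p = 0.000596). AT1G26380, whose enzyme is known from a cyanide-bearing defence compound, had 28.4 and 32.1 against 776.4 and 1141.3 (3.97 ± 0.53, adjusted p = 0.00127). AT4G20830 had 303.8 and 252.9 against 1529.6 and 1777.6 (2.44 ± 0.41, adjusted p = 0.00491) and lost its call only without the culture 1 wild-type array, where it stood at 2.44. All 4 called members, AT1G30700 included, kept their call without the culture 1 atg5 array. AT1G30700, AT1G26390 and AT1G26380 were under 97.6 in both Col-0 arrays, so a difference was built into their entry to the test. Members that did not pass stood on both sides of 0, such as AT5G44410 at −0.75 (adjusted p = 0.162) and AT4G20860 at 1.37 (adjusted p = 0.179).

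Of 10 genes with TIR or NBS domains, the domains of intracellular immune receptors, 4 rose, all 10 were above 0, and the median was 1.55. AT1G57630 had 51.7 and 95.7 in Col-0 against 1638.4 and 2245.0 in atg5 (4.24 ± 0.54, adjusted p = 0.00105), and AT1G72890 had 309.2 and 242.6 against 1544.0 and 1643.5 (2.41 ± 0.31, adjusted p = 0.00109). Both passed with each array left out, though AT1G57630 was under the filter limit of 97.6 in both Col-0 arrays. AT1G66090 and AT2G20142 also rose, by 2.81 ± 0.71 (adjusted p = 0.0358) and 2.41 ± 0.47 (adjusted p = 0.0106). AT1G66090 lost its call without any 1 array (2.26 to 3.36), and AT2G20142 without either Col-0 array (2.38 and 2.44).

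Of 15 receptor and kinase genes of immunity with a probe set 5 were tested, and 1 of these rose. AT1G51890, a leucine-rich repeat receptor kinase gene, had 37.1 and 14.0 in Col-0 against 833.5 and 1255.7 in atg5 (4.23 ± 0.67, adjusted p = 0.00331) and passed with each array left out. Both of its Col-0 signals were under 97.6, so it entered the test through brighter arrays. BIK1, the kinase that relays signals of surface receptors, had 348.8 and 290.1 against 532.8 and 454.9 and did not pass (0.58, adjusted p = 0.368). OSM34, the osmotin-like pathogenesis protein, is outside the list and was picked for its symbol after its values were seen. It had 109.0 and 76.6 against 1629.0 and 1456.2 (3.67 ± 0.44, adjusted p = 0.000785) and passed with each array left out. CML41, a calmodulin-like protein of plasmodesmal closure in immunity, had 47.2 and 100.4 against 310.0 and 733.0 (2.32 ± 0.41, adjusted p = 0.0062) and lost its call without either Col-0 array (2.34 and 2.3).

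None of the 3 tested genes of jasmonate and ethylene defence passed (6.9% over all tested), and the list was not tested against the others. Its median was −0.14 here, 1.4 at 30 days and 1.89 on high nitrate. The defensin gene PDF1.2 had 4932.1 and 11117.1 in Col-0 against 2189.2 and 5412.2 in atg5, so the groups overlapped (−1.1 ± 0.73, adjusted p = 0.396). PDF1.2b was higher in atg5 in culture 1 and lower in culture 2 (0.77 and −1.05), and EIN3, the ethylene transcription factor, stood at 0.00 (adjusted p = 0.996). PDF1.2 and PDF1.2b are near copies, and their probe sets may not tell them apart.

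Chaperone and protein quality genes rose in part. Hsp70-2, a cytosolic chaperone, is in no list here and was picked for its symbol after its values were seen. It had 321.3 and 338.3 in Col-0 against 1863.7 and 4029.2 in atg5 (2.94 ± 0.36, adjusted p = 0.000944) and passed with each array left out. Both tested heat shock list members rose, against 4.76% of all probe sets tested. AT5G48570, a peptidyl-prolyl isomerase of the heat response listed as ROF2, had 137.5 and 154.1 against 423.8 and 803.9 (1.8 ± 0.25, adjusted p = 0.0017), and Fes1A, a partner of HSP70, had 626.1 and 462.1 against 1398.8 and 1554.9 (1.4 ± 0.24, adjusted p = 0.00483). AT5G48570 passed with each array left out, and Fes1A lost its call without the culture 2 wild-type array (1.08). Of 6 genes of folding in the endoplasmic reticulum, 1 rose (4.76% over all tested), with a median of 0.48. It was BZIP60, the transcription factor of the unfolded protein response, with 1408.6 and 1089.3 against 2445.7 and 2623.0 (1.01 ± 0.28, adjusted p = 0.0497), a call lost without any 1 array (0.88 to 1.15). BZIP17 and BZIP28, 2 other sensors of this response, were at 0.60 and 0.36 and did not pass. SGT1A, a co-chaperone of immune receptors, was likewise in no list and picked for its symbol after its values were seen. It had 1333.1 and 1179.6 against 2955.3 and 2913.8 (1.21 ± 0.21, adjusted p = 0.00504). Its call was lost without the culture 2 wild type (1.00) or the culture 1 atg5 array (1.09).

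Redox genes did not move as a group. Of 10 tested, 1 rose and 1 fell (4.76% higher and 2.15% lower over all tested), with a median of −0.34. MSRB9, a methionine sulfoxide reductase that repairs oxidised proteins, had 47.4 and 137.6 in Col-0 against 434.8 and 1238.4 in atg5 (2.73 ± 0.36, adjusted p = 0.00118), whereas its relative MSRB5 had 1087.0 and 1330.0 against 336.6 and 653.0 (−1.30 ± 0.27, adjusted p = 0.0164). MSRB9 passed with each array left out, and MSRB5 lost its call without either Col-0 array or without the culture 1 atg5 array (−0.88, adjusted p = 0.178). CCS, the copper chaperone of superoxide dismutase, is outside the list and was picked for its symbol after its values were seen. It had 1605.1 and 1156.4 against 702.6 and 483.7 (−1.18 ± 0.20, adjusted p = 0.00519), nearly the same in both cultures (−1.16 and −1.2). It kept its call without the culture 1 atg5 array (−1.24, adjusted p = 0.0301) but not without the culture 1 wild type (−1.15).

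Large enzyme families were counted by words in RefSeq gene names, so members without such a name are left out. Of these families, cytochrome P450 had 3 rises and no fall among 12 tested, with 6 above 0 and 6 below and a median of 0.04. UDP-glycosyltransferase had 1 rise among 19, near the 4.76% over all tested, with 15 below 0 and a median of −0.44 (61.0% below 0 over all tested). AT4G09500, a UDP-glycosyltransferase gene named below, is not among the 19, and it fell. CYP71B6, listed with camalexin and tryptophan metabolism, had 1457.0 and 1382.7 in Col-0 against 3929.2 and 3553.6 in atg5 (1.38 ± 0.21, adjusted p = 0.00303). UGT87A2 had 361.3 and 486.0 against 3345.1 and 3111.6 (2.85 ± 0.36, adjusted p = 0.000962). CCOAMT, a methyltransferase that acts on caffeoyl-CoA type substrates, had 84.2 and 65.0 against 3110.2 and 1250.5 (4.24 ± 0.55, adjusted p = 0.00115). It is in no list here, was picked for its symbol after its values were seen, and was under 97.6 in both Col-0 arrays. These 3 genes passed with each array left out, and none of their groups overlapped. CYP71B23 and CYP71B24 rose by 2.49 ± 0.54 (adjusted p = 0.019) and 1.77 ± 0.42 (adjusted p = 0.0276), but CYP71B23 kept its call only without the culture 1 atg5 array and CYP71B24 in none of the 4 fits. They ran from 1.65 to 3.34 and from 1.57 to 1.97 over these fits. No glutathione transferase passed among 5 tested (6.9% over all tested).

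Genes of carbon and nitrogen use moved in both directions. Of 3 nitrate and nitrogen genes tested 1 rose (4.76% over all tested), AT5G38710, a proline dehydrogenase gene of proline breakdown. It had 71.2 and 140.6 in Col-0 against 2192.8 and 1673.0 in atg5 (3.87 ± 0.46, adjusted p = 0.000785) and passed with each array left out. DELTA-OAT, the ornithine aminotransferase of arginine breakdown, is outside the list and was picked for its symbol after its values were seen. It had 632.6 and 681.2 against 1595.3 and 1346.2 (1.12 ± 0.24, adjusted p = 0.016). NRT2.5, the nitrate transporter of starved plants, had 283.2 and 234.1 against 239.7 and 1177.6, so the atg5 arrays fell on either side of Col-0 (0.99, adjusted p = 0.376). DELTA-OAT lost its call without either Col-0 array or without the culture 1 atg5 array (0.99, adjusted p = 0.139).

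Of 16 sugar transport and starch genes, 3 rose and 1 fell, with 11 below 0 and a median of −0.88 (over all tested 4.76% were higher, 2.15% lower and 61.0% below 0). SWEET2, a vacuolar sugar transporter, had 333.0 and 115.7 in Col-0 against 2393.4 and 784.3 in atg5 (2.6 ± 0.67, adjusted p = 0.0398). The wall invertase-family gene cwINV6 had 91.2 and 85.7 against 526.2 and 598.6 (2.3 ± 0.43, adjusted p = 0.00881), and AMY1, a secreted alpha-amylase, had 96.9 and 54.3 against 320.8 and 571.8 (2.13 ± 0.45, adjusted p = 0.0172). SBE2.2, a starch branching enzyme, had 2583.8 and 2308.7 against 822.7 and 1165.7 (−1.29 ± 0.30, adjusted p = 0.0238). The groups did not overlap in these 4 genes. In cwINV6 and AMY1 both Col-0 signals were under 97.6, the filter limit. APL3, a subunit of the first enzyme of starch synthesis, had 4514.3 and 4598.8 against 275.6 and 2757.3 and did not pass (−2.31 ± 0.64, adjusted p = 0.0508). Without the culture 1 atg5 array, cwINV6 (2.5) and AMY1 (2.77) kept their call, while SWEET2 stood at 1.67 (adjusted p = 0.387), SBE2.2 at −1.13 (adjusted p = 0.193) and APL3 at −0.92 (adjusted p = 0.445). Leaving out either Col-0 array ended the call of all 4, and leaving out the culture 2 atg5 array that of AMY1 (1.49).

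**Figure D4:**
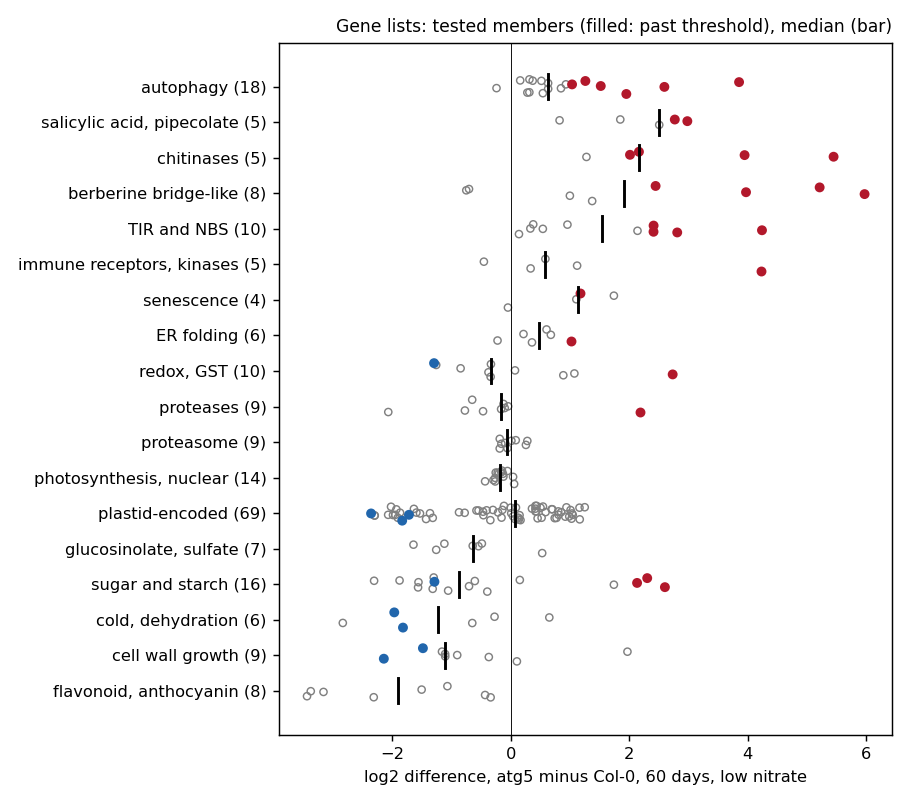
Each row is a gene list, with its number of tested members in brackets, each point the log2 difference of a member (atg5 minus Col-0, 60 days, low nitrate), filled where the adjusted p is under 0.05, and a bar at the list's median. The salicylic acid, chitinase, berberine bridge enzyme-like and TIR lists have their medians furthest to the right among lists of 5 or more, and the flavonoid list lies wholly to the left with no filled point.

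Of the 15 largest falls, 1 passed with each array left out. AT1G78450, a gene of the SOUL haem-binding family, had signals of 548.4 and 383.2 in Col-0 and of 37.0 and 65.3 in atg5. Both atg5 arrays were well below both Col-0 arrays, and the difference was −2.58 ± 0.37 (adjusted p = 0.00196), with −2.36 (adjusted p = 0.0256) without the culture 1 atg5 array. AT4G09500, a UDP-glycosyltransferase gene, had 400.1 and 577.7 against 40.6 and 195.6 (−2.0 ± 0.33, adjusted p = 0.0041), and AT1G75800, a thaumatin-family gene, had 4707.5 and 3769.5 against 808.6 and 1422.8 (−1.94 ± 0.31, adjusted p = 0.00335). Both kept their call without the culture 1 atg5 array (−1.39 and −1.56) but not without the culture 1 wild type (−1.94 and −1.69). TUB5, a beta-tubulin gene, fell alike in both cultures, with 1435.5 and 1999.5 against 469.4 and 657.7 (−1.55 ± 0.28, adjusted p = 0.00647). Its call ended without the culture 1 atg5 array (−1.2, adjusted p = 0.0782) or the culture 2 wild type (−1.19).

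Of 9 growth-related wall genes tested, 2 fell (2.15% of all probe sets tested) and none rose. The list had 7 members below 0 (61.0% over all tested) and 2 above, and a median of −1.11 that was −1.30 in culture 1 and −0.41 in culture 2. The highest was ATPMEPCRB, a pectin methylesterase, at 1.97 (adjusted p = 0.117). EXPB3, an expansin, had 1042.3 and 2439.2 in Col-0 against 112.1 and 910.7 in atg5 (−2.14 ± 0.52, adjusted p = 0.0308), and EXPA4 had 720.2 and 905.5 against 118.0 and 568.3 (−1.48 ± 0.34, adjusted p = 0.0233). Outside the list, and picked for their symbol after their values were seen, the endoglucanase-family genes GH9C2 and GH9B8 fell by 1.8 ± 0.45 (adjusted p = 0.0357) and 1.72 ± 0.45 (adjusted p = 0.0419). In EXPB3 and EXPA4 the groups did not overlap, but the array of atg5 in culture 1 was far lower than its partner. Without it the list's median was −0.18, and EXPB3 stood at −1.15 (adjusted p = 0.317), EXPA4 at −0.77 (adjusted p = 0.177), GH9C2 at −1.08 (adjusted p = 0.367) and GH9B8 at −1.30 (adjusted p = 0.352). The 4 calls were also lost without either Col-0 array.

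Of 6 cold, dehydration and abscisic acid genes, 2 fell (2.15% over all tested) and 5 were below 0 (61.0% over all tested), with a median of −1.24. COR15B, a chloroplast protein of cold protection, had 2239.2 and 2540.3 in Col-0 against 583.6 and 587.9 in atg5 (−1.97 ± 0.35, adjusted p = 0.00607). Its 2 atg5 arrays were nearly equal, and without that of culture 1 it stood at −1.94 (adjusted p = 0.051). HIS1-3, a linker histone of drought, had 2383.7 and 2377.8 against 463.5 and 908.9 (−1.82 ± 0.48, adjusted p = 0.0428), or −1.48 (adjusted p = 0.323) without that array. COR15A, the near copy of COR15B, had 9523.0 and 18061.8 against 642.8 and 4989.3 and did not pass (−2.84 ± 0.87, adjusted p = 0.0713). Both calls were also lost without either Col-0 array.

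The flavonoid and anthocyanin list had the lowest median of all lists with at least 5 tested genes, −1.91. None of its 8 members passed (6.9% over all tested). All 8 were below 0, against 61.0% of all probe sets tested. DFR, dihydroflavonol reductase of the anthocyanin branch, had 3176.6 and 11089.7 in Col-0 against 107.3 and 3163.5 in atg5 (−3.16 ± 1.25, adjusted p = 0.147). UF3GT, which adds a sugar to anthocyanins, had 1610.0 and 7131.6 against 53.3 and 1137.8 (−3.44 ± 1.14, adjusted p = 0.0909), and the anthocyanin glucosyltransferase gene AT4G14090 had 2461.4 and 10548.5 against 66.4 and 2450.8 (−3.38 ± 1.2, adjusted p = 0.112). In each of the 3 genes culture 2 was higher than culture 1 in both genotypes, so that the levels of culture 2 in atg5 came near those of culture 1 in Col-0, while atg5 was below Col-0 within each culture. The 7 glucosinolate and sulfate genes had a median of −0.64 and none passed (6.9% over all tested). None of 5 sphingolipid and lipid genes passed either, with a median of −0.40.

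Photosynthesis differed little among nuclear genes. None of 14 passed, against 6.9% of all probe sets tested in either direction. Below 0 were 12 of the 14, against 61.0% over all tested, with a median of −0.18 and a range from −0.44 to 0.06. The next 3 genes are in no such list and were picked for their symbol after their values were seen. CHLI2, a subunit of the enzyme that commits to chlorophyll, had 770.3 and 582.0 in Col-0 against 306.7 and 343.1 in atg5 (−0.98 ± 0.21, adjusted p = 0.0184). FTSZ2-1, of chloroplast division, had 1518.6 and 1302.7 against 657.2 and 865.4 (−0.87 ± 0.22, adjusted p = 0.0338), and LPA2, an assembly factor of photosystem II, had 1177.9 and 938.4 against 503.1 and 509.6 (−1.01 ± 0.25, adjusted p = 0.0358). The groups did not overlap in these 3 genes. Without the culture 1 atg5 array they stood at −0.82, −0.70 and −0.95 and did not pass, nor did they without either Col-0 array, and LPA2 not without the culture 2 atg5 array (−1.07).

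Among the 69 plastid-encoded genes 3 fell, against 2.15% of all probe sets tested, and none rose, with 37 above 0, 32 below and a median of 0.07. The 3 were ribosomal protein genes of 1 stretch of the plastid genome. rpl14 had 2342.6 and 1393.8 in Col-0 against 256.0 and 414.3 in atg5 (−2.36 ± 0.44, adjusted p = 0.00822), rpl16 had 2716.2 and 1522.2 against 594.7 and 503.8 (−1.83 ± 0.42, adjusted p = 0.0233), and rpl36 had 5391.7 and 6953.9 against 1528.4 and 2204.2 (−1.72 ± 0.46, adjusted p = 0.0452). The groups did not overlap in any of them. rps19, rpl22 and rps3 of the same stretch stood at −2.3, −2.3 and −2.07 and did not pass. At the other end of the list were ndhG at 1.25 and petD at 1.16, which did not pass either, and in which culture 1 exceeded culture 2 in both genotypes. Without the culture 1 atg5 array the list's median was −0.37, and rpl14, rpl16 and rpl36 stood at −1.91 (adjusted p = 0.103), −1.77 (adjusted p = 0.156) and −1.48 (adjusted p = 0.313). With the culture 1 wild type left out they stood at −2.03, −1.56 and −1.87, again without passing. In culture 2 the same held for rpl16 without the wild type (−2.11) and for rpl36 without either array (−1.57 and −1.96).

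Senescence and protease genes were few on the named part of the array. Of 4 senescence genes 1 rose (4.76% over all tested). WRKY6, a senescence-linked transcription factor, had 108.1 and 106.8 in Col-0 against 234.7 and 332.4 in atg5 (1.16 ± 0.28, adjusted p = 0.03), a call lost without any 1 array (0.94 to 1.38). PPDK, of nitrogen remobilisation in old leaves, had 3700.0 and 2990.7 against 9997.6 and 5168.5 (1.1, adjusted p = 0.0855), and NOL, of chlorophyll breakdown, stood at −0.05. Of 9 protease genes 8 were below 0 (61.0% over all tested), the median was −0.17, and 1 rose (4.76% over all tested). It was SBT3.3, a subtilase of immune priming, with 60.3 and 77.5 in Col-0, both under 97.6, against 249.6 and 711.7 (2.19 ± 0.57, adjusted p = 0.0417). It kept its call without the culture 1 atg5 array (2.97) and lost it without any 1 of the other 3 arrays (1.4 to 2.31). Its relative SBT3.5, outside the list, had 209.0 and 185.8 against 1930.3 and 1917.6 (3.09 ± 0.47, adjusted p = 0.00256) and passed with each array left out. BETA-VPE, a vacuolar processing enzyme, had 2603.7 and 3216.8 against 254.2 and 1666.9 and did not pass (−2.07 ± 0.57, adjusted p = 0.0518).

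The difference at 60 days was then set against that between the same genotypes at 30 days, which uses other arrays. At 30 days no probe set passed for atg5 against Col-0 (0%), with 960 at an unadjusted p under 0.05 in limma. The difference of the 2 differences passed for 107 probe sets (0.784%), of which 90 were more positive at 60 days (0.659%) and 17 more negative (0.125%). ADPG1 had signals of 19.2 and 11 in Col-0 and of 12.3 and 20.4 in atg5 at 30 days, so the groups overlapped there, and its difference was larger at 60 days by 6.00 ± 0.89 (adjusted p = 0.0241). The same term was 5.28 ± 0.90 for AT1G30700 (adjusted p = 0.0249), 5.19 ± 0.84 for AT3G61930 (adjusted p = 0.0241), 5.01 ± 1.02 for AT4G01870 (adjusted p = 0.0486) and 4.97 ± 0.65 for AT5G40690 (adjusted p = 0.0165). Among the more negative terms rpl14 had −3.52 ± 0.62 (adjusted p = 0.0293), rpl16 −3.05 ± 0.59 (adjusted p = 0.0407), SBE2.2 −2.21 ± 0.42 (adjusted p = 0.0369), AT5G20700 −2.18 ± 0.39 (adjusted p = 0.0293) and AT4G35335 −1.98 ± 0.40 (adjusted p = 0.0476). In rpl14 and rpl16 both atg5 arrays were above both Col-0 arrays at 30 days, at 2125.7 and 1449.7 against 1071.0 and 544.6 for rpl14.

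This count rests on single arrays. At 60 days, leaving out the wild type gave 4 in culture 1 and 1 in culture 2, and leaving out atg5 gave 4 in culture 1 and 244 in culture 2. At 30 days, leaving out the wild type gave 1 in culture 1, where the lower quartile stood apart, and 753 in culture 2, and leaving out atg5 gave 38 in culture 1 and 2 in culture 2. None of the 10 named terms passed without the culture 1 wild type at 30 days. As a description with no test, 426 of the 649 probe sets higher at 60 days were above 0 at 30 days (65.6%, against 49.1% of all tested), with a median of 0.18.

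On high nitrate the same genotypes again differed. The labels of these 4 arrays disagree on age, giving 30 days in the titles and 60 days in the source description, so age and nitrate cannot be told apart in this comparison. There 75 probe sets passed (0.55%), 70 of them higher in atg5 (0.513%) and 5 lower (0.0366%). No probe set passed for the difference between the 60-day low-nitrate and the high-nitrate differences (0%), with 419 at an unadjusted p under 0.05 in limma. Of the 649 higher probe sets, 644 were above 0 on high nitrate (99.2%, against 46.5% of all tested), with a median of 1.19. Of the 293 lower ones, 274 were below 0 (93.5%, against 53.5%), with a median of −0.43. A test with 2 arrays a group that calls nothing does not show that the differences are equal.

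Single genes are given as examples, and none of them passed the test of low against high nitrate. ADPG1 had 18.0 and 20.2 in Col-0 and 373.3 and 1444.6 in atg5 on high nitrate (3.92, adjusted p = 0.0172), and AT1G05340 had 60.2 and 149.4 against 2239.6 and 4245.2 (4.59, adjusted p = 0.014). ATG8H had 342.4 and 351.0 against 1235.3 and 3000.7 (2.37, adjusted p = 0.0301), and UBC32 had 939.4 and 1244.0 against 2206.1 and 2794.0 (1.18, adjusted p = 0.0265). In these 4 genes both atg5 arrays were again above both Col-0 arrays. MSRB5 fell there too, with 5818.5 and 6718.6 against 1870.0 and 1618.3 (−1.83, adjusted p = 0.0132). CCS, lower at 60 days on low nitrate, had 921.1 and 841.5 against 1128.5 and 854.3 on high nitrate (0.15, adjusted p = 0.938). DFR had 4291.7 and 8753.2 against 832.2 and 732.6, without overlap and without passing (−2.92, adjusted p = 0.524).

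The mutant atg9, a single SALK T-DNA line in a membrane protein that supplies lipid to the forming vesicle, was set beside atg5 at 60 days. Both are compared with the same 2 Col-0 arrays, so their differences from Col-0 are not independent of each other. Against Col-0, 74 probe sets passed in atg9 (0.542%). ADPG1 had signals of 867.3 and 319.0 in atg9 (3.70, adjusted p = 0.0257), AT1G30700 of 1232.3 and 962.1 (4.21, adjusted p = 0.0182), ATG8H of 1029.6 and 844.4 (2.02, adjusted p = 0.0682), and AT3G47540 of 1261.0 and 1265.4 (2.92, adjusted p = 0.000894). In these 4 genes both atg9 arrays lay between those of Col-0 and those of atg5. The genes were picked for atg5 against the same Col-0 arrays, so a smaller difference in atg9 is partly built in by that choice. In the direct test of atg9 against atg5, 1 probe set passed (0.00733%), with 1123 at an unadjusted p under 0.05 in limma. It is 264113_at, paired with no gene here and named after its values were seen, with 1014.9 and 532.0 in atg5, 1.9 and 3.7 in atg9, and 293.9 and 236.4 in Col-0 (atg9 minus atg5 −4.47 ± 0.34, adjusted p = 0.000286). CCS and AT5G48570 came next among the genes described, at 1.44 and −1.77 (adjusted p = 0.0604 for both).

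**Figure D5:**
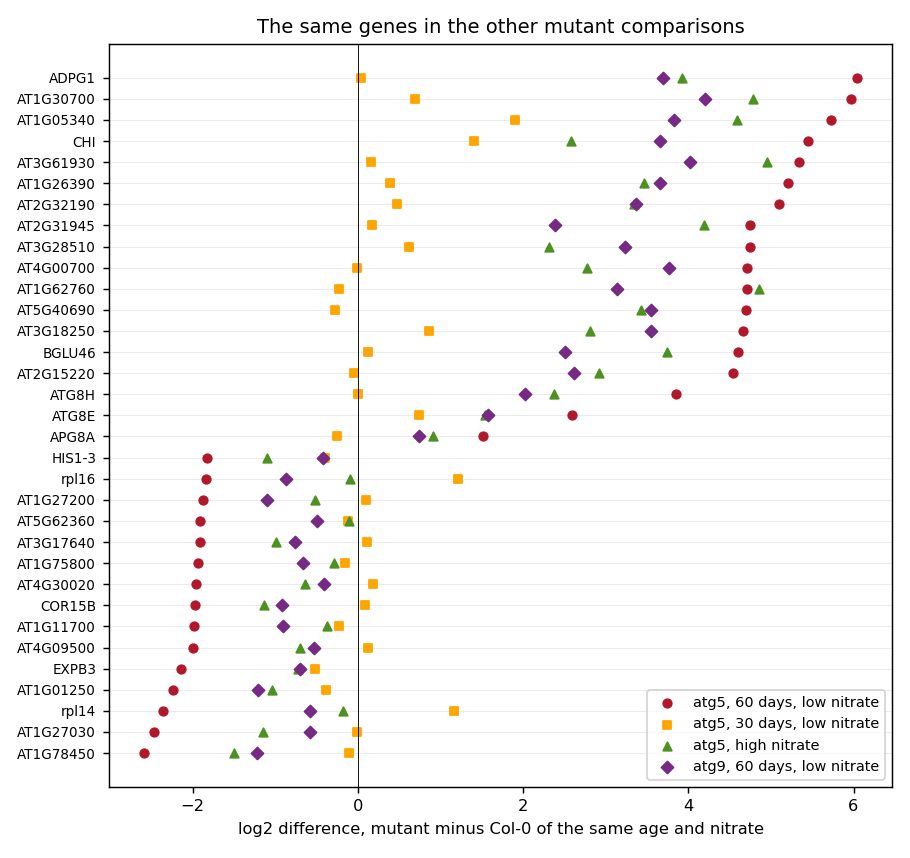
For the 15 largest rises and 15 largest falls in atg5 at 60 days on low nitrate, and for ATG8H, ATG8E and APG8A, points give the log2 difference of mutant minus Col-0 in that comparison, at 30 days on low nitrate, on high nitrate, and for atg9 at 60 days. ADPG1 stands at 6.04, 0.04, 3.92 and 3.70 in these comparisons, and the 60-day and atg9 points share their Col-0 arrays.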

How the data were processed

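Whole-rosette RNA of 16 samples was hybridised to 1-colour ATH1 arrays. The deposited values are linear signal intensities, which the submitters' processing notes credit to MAS5. Each array's mean without its outer 2% on either side was 500.04 to 500.05, which shows scaling to a common mean. Here log2(signal + 32) was fitted with limma 3.58.1 in R 4.3.3 over all 16 arrays, with 8 groups, the culture as a block (7 residual degrees of freedom) and an intensity trend in the variance prior. Of 22746 probe sets for genes, the 13648 with a mean log2 of at least 7.02 (the 40th percentile) were tested, with Benjamini-Hochberg adjustment over all of them and a threshold of 0.05. Median signals per array were 154 to 254, and the number of arrays limits the precision.

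Cultures were grown months apart, so the culture pairs the arrays by design. Deviations from group means in same-culture arrays correlated at −0.168 to 0.707 over 28 pairs of groups, with a median of −0.0725 and 8 pairs over 0.1 (0.464 for atg5 and Col-0 at 60 days), so the arrays themselves show the pairing in a minority of pairs. Pools within a culture may share conditions.

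Of the probe sets, 13513 have 1 gene in the platform annotation, 503 have several and 8730 are not listed. By gene ID, 13436 matched RefSeq, which supplied current symbols. Roles of loci that have no symbol there are background knowledge. No promoter or protein sequences were used here, and a planned motif search was not run.

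The comparison and the gene lists were chosen with earlier results of these data known. Genes named are the 15 largest rises and falls with 1 gene and 1 direction in both cultures, the 10 a direction that passed with each array left out, up to 6 per list by p, and up to 5 a direction in the other tests. A gene with several probe sets is represented by that of the highest mean. Naming called genes that have a symbol was added after their values were seen. Alternatives were 64 added or a floor of 1, quantile normalization, no filter, no trend, no block, only the groups compared, array weights, the actin ratio as a covariate, and arrays left out. The fit was tested on simulated data. Python 3.11.15 made tables and figures.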

Additional observations from a re-analysis of the deposited data

Results flagged for a closer look

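The difference between atg5 and Col-0 was itself tested between ages, and 107 probe sets passed for a difference at 60 days that departs from that at 30 days. The terms with the largest sizes among named genes were 6.00 for ADPG1, 5.28 for AT1G30700, 5.19 for AT3G61930, 5.01 for AT4G01870 and 4.97 for AT5G40690. On the negative side they were −3.52 for rpl14, −3.05 for rpl16, −2.21 for SBE2.2, −2.18 for AT5G20700 and −1.98 for AT4G35335. The Col-0 array of culture 1 at 30 days, whose lower quartile of signal stood apart, is in each of these terms, and their count without it was 1.

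The 2 mutants at 60 days differed at 1 probe set, 264113_at, by −4.47 (atg9 minus atg5). It lay near 0 in both atg9 arrays. No gene was paired with it, and its part in either mutant was not tested.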

How the results depend on the processing

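For atg5 against Col-0 at 60 days, 942 probe sets passed, 649 higher and 293 lower. With the actin ratio as a covariate the count was 450 (422 and 28), and leaving out both arrays that stand apart gave 355 (330 and 25). Over fits that each leave out 1 of the 4 arrays it ran from 199 to 1666, from 188 to 710 for higher and from 11 to 956 for lower. The other alternatives, including no replicate block (862, 626 higher and 236 lower), gave 795 to 1220. Array weights came out equal for the 2 arrays of each group, at 0.644 for both atg5 arrays at 60 days. That setting could therefore not weigh the culture 1 atg5 array against its partner. For the difference at 60 days minus that at 30 days, 107 passed, and the count was 22 with signals under 1 set to 1, 46 with only the groups compared, 1 with array weights, 1 without the 2 arrays that stand apart, and 1 to 753 with 1 array left out. For low against high nitrate it was 0, and 0 to 1 with 1 array left out. For atg9 against atg5 it was 1, with 50 when only these groups were fitted, and 1 to 81 with 1 array left out.

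Among 343 gene differences at 60 days, 112 of them called, none changed sign in a called result. Calls lost were 49 with the actin covariate, 60 without the 2 arrays, 9 with no replicate block, 12 with quantile normalization, 12 with array weights, 21 with no filter, 14 with only the groups compared, 3 with no trend, 1 with 64 added and 12 of 104 with the floor. With 1 array left out, 21 to 73 calls were lost. Fits with fewer arrays have fewer samples, but the number of probe sets called went up or down depending on the array left out. The cause of these shifts was not tested. Signals under 97.6, the limit of the filter, are dim, and their ratios depend on the constant added.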
